A study of Mus musculus with 15 samples.

Results

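Beside miRNAs, piRNAs and tRNAs, the small RNA libraries of sorted mouse microglia held fragments of many other transcripts, and 275 entries of that remaining table are described here. They are the transcript entries whose identifier does not begin ENSMUST00000082 or ENSMUST00000083 and that reached 10 or more distinct molecules (UMIs, unique molecular identifiers that count a tagged molecule once however often it was read) in at least 10 of 15 libraries. Of the 1347 entries of the table, 1156 had such an identifier and 275 passed the rule. The entries were thus chosen by their UMI counts in these same libraries, so their amount is a description, and no test is attached to it.

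Microglia, the macrophages that reside in the brain, were sorted by their surface CD11b and CD45 from mice whose strain is labelled 5xFAD in all groups, a strain in which transgenes driven in neurons deposit amyloid, and all mice had been injected with the amyloid-binding dye Methoxy-X04 (Me-X04). TG Me-X04+ cells came from transgenic mice labelled 6 months old and carried the dye, TG Me-X04- cells came from the same transgenic mice and did not carry it, and WT cells came from wild-type mice labelled 2 months old. There were 5 libraries in each group, and both TG libraries of a replicate number came from 1 mouse. Genotype and labelled age change together, so in any comparison with WT they cannot be told apart. Total UMIs in the table were 81777 to 537974 per library, and no value lay between 1 and 9, so that an entry listed at 0 may have held up to 9. In bulk samples such as these, fewer cells of a type and less RNA per cell cannot be told apart.

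Kits for small RNAs capture short RNAs with the right ends, so a long transcript is seen only through the fragments that such a kit ligates, and its count is not a measure of the full-length RNA. Long noncoding RNAs (lncRNAs) act in the nucleus or the cytoplasm without being translated, and several of them are hosts from whose introns or exons small RNAs are cut. Small nucleolar RNAs (snoRNAs) guide the modification and cutting of ribosomal RNA in the nucleolus, with small Cajal body RNAs (scaRNAs) as their relatives for the spliceosome, and small nuclear RNAs (snRNAs) are the RNA parts of the spliceosome itself. Most of the RNA of the ribosome is cut from the 45S precursor.

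By the GENCODE vM21 annotation (GRCm38), 168 of the 275 entries were long noncoding transcripts of 145 genes, 62 were snoRNAs or scaRNAs, 27 were snRNAs, 6 were miscellaneous RNAs or ribozymes, 3 were protein coding, 2 were ribosomal RNA entries (45S and 18S) and 7 had no entry in that annotation. The 168 comprised 66 lincRNA, 54 antisense, 22 retained intron and 13 processed transcripts, 8 of bidirectional promoters, 3 sense intronic, 1 sense overlapping and 1 unconfirmed (TEC) transcript. In 35 of the 168, an exon held an annotated small RNA gene on the same strand (a snoRNA or scaRNA in 20, a miRNA in 6), so that a molecule of the small RNA could be counted for the host. These 35 entries took 29.2% of all UMIs on the long noncoding entries, with 8.87% as the lowest and 51.8% as the highest library. Only 50 long noncoding entries shared no 20-base word with another entry of the table, 31 shared over 50% of theirs, and 14 of the 27 snRNA entries shared all, so counts within such families are uncertain.

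Sequences are shown for the small RNAs on which the results turn. The first set holds 2 box C/D snoRNAs that were lower in TG Me-X04+ cells, Snord17 (chr2:144265979-144266216, minus strand) and the U3 RNA Rnu3b3 (chr11:87448627-87448842, plus strand), with Gm25506 (chr8:85050207-85050276, plus strand), the snoRNA entry with the most UMIs. Capitals mark TGATGA and the last CTGA, the letters of the C and D boxes. The sequences are GENCODE vM21 transcripts on GRCm38.
Snord17: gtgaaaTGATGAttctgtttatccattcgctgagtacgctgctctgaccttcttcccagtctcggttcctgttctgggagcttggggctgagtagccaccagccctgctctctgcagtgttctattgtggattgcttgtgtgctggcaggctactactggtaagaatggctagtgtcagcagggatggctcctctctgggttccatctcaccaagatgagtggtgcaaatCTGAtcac
Rnu3b3: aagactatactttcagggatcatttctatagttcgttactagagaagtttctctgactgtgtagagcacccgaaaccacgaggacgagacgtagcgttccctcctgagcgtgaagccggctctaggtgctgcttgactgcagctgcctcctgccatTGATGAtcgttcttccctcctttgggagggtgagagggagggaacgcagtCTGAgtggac
Gm25506: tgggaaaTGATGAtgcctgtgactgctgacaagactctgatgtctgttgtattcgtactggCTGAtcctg

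TGATGA followed later by CTGA stood on the sense strand of 44 of the 62 snoRNA or scaRNA entries and on the antisense strand of 0. Windows of the lengths of the snoRNAs shown above were taken from the starts of the 168 long noncoding entries. On the sense strand these letters stood in 1.79% (70 bases), 6.55% (216 bases) and 8.93% (238 bases) of the windows. On the antisense strand they stood in 0, 3 and 3 windows.

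The U1 snRNAs, which pair with the start of an intron, are shown because the 2 forms below set 2 WT libraries apart. Capitals mark ACTTACCTG, the letters that pair with the splice site. Rnu1a1 lies at chr11:87422867-87423030 and Rnu1b2 at chr3:96374021-96374185, both on the plus strand (GRCm38).
Rnu1a1: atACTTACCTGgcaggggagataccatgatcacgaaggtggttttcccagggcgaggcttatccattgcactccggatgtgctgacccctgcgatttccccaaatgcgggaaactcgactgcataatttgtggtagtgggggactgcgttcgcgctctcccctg
Rnu1b2: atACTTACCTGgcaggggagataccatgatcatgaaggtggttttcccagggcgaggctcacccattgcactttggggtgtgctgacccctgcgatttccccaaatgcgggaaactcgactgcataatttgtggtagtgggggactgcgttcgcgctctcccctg

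The 2 U1 sequences were identical at 158 aligned positions, differed at 6 and had 1 gap. The letters ACTTACCTG stood in 14 of the 27 snRNA entries on the sense strand, in 0 on the antisense strand, and in 0 of 168 windows of 164 bases from the long noncoding entries on either strand.

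Finally, 2 mature miRNAs are shown with their seed (bases 2 to 8) in capitals, because the host Mir155hg was called higher and the host C130071C03Rik lower in TG Me-X04+ cells. Both come from RefSeq (GRCm38.p6). The miR-155-5p sequence (chr16:84714143-84714165, plus strand) begins at base 162 of the 1264-base Mir155hg transcript, and miR-9-5p (chr13:83738821-83738843, plus strand, the Mir9-2 copy) at base 1103 of the 3590-base C130071C03Rik transcript.
mmu-miR-155-5p: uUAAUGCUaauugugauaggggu
mmu-miR-9-5p: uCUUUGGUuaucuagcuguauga

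The 275 entries took most of the table's UMIs. Their share ran from 87.8% over a median of 88.9% to 91.7% in TG Me-X04+ libraries, from 77.4% over 82.2% to 85.1% in TG Me-X04- libraries and from 81.2% over 81.3% to 87.7% in WT libraries. A few entries made up nearly all of this, since the 12 highest took 64.7% to 84.3% of a library's UMIs.

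The ribosomal 45S entry was by far the highest, with a mean share of 57.0% over the 15 libraries. It took 59.2% to 63.8% of UMIs in TG Me-X04+ libraries (median 61.8%), 49.98% to 57.5% in TG Me-X04- libraries (53.4%) and 52.4% to 59.3% in WT libraries (54.7%), so the TG groups did not overlap in this share. The 18S entry followed with a mean of 6.27% and took 6.86% to 9.90% in TG Me-X04+ libraries, 3.17% to 6.29% in TG Me-X04- libraries and 4.42% to 8.40% in WT libraries. Next was Gm42418 (4.24%), a lincRNA entry at chr17:39846958-39848788 that RefSeq lists under a ribosomal RNA pseudogene, Rn18s-rs5. All 3 are thus ribosomal RNA entries or lie at a locus named for one.

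Behind them came Gm15564, an antisense transcript (1.09%), the snoRNA Gm25506 (1.04%), the Gas5 transcripts ENSMUST00000159399 (0.989%) and ENSMUST00000162289 (0.947%), the lincRNA A330023F24Rik (0.768%), Snord17 (0.573%), ENSMUST00000180819 (0.521%, not in GENCODE vM21), another Gas5 transcript, ENSMUST00000161229 (0.372%), and Snord55 (0.346%). These shares are not corrected for transcript length. Gas5 is a host whose introns hold a row of snoRNA genes, and its named transcripts here are annotated as retained introns that include those genes.

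**Figure D1:**
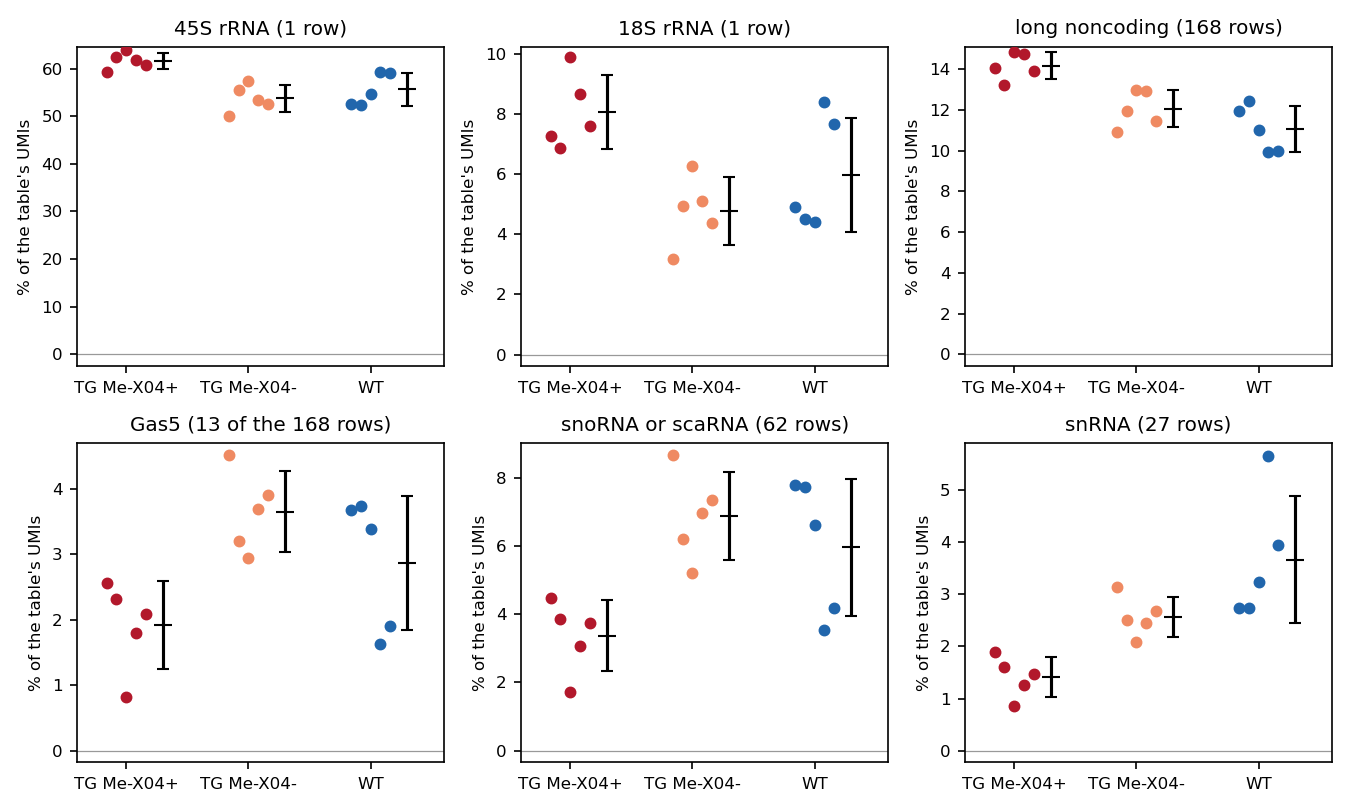
Share of the table's UMIs (y axis, percent) by RNA class in TG Me-X04+, TG Me-X04- and WT libraries (x axis). Each point is 1 library, and the dash with bars is the mean ± SD of 5 libraries. The 45S and 18S shares averaged highest in TG Me-X04+ libraries, whose 45S points (59.2% to 63.8%) lie above all TG Me-X04- points (49.98% to 57.5%), while the snoRNA shares lie the other way round.

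Long noncoding entries together took 14.2% ± 0.663 of UMIs in TG Me-X04+ libraries, 12.1% ± 0.910 in TG Me-X04- libraries and 11.1% ± 1.13 in WT libraries (SD, n = 5 each), and all TG Me-X04+ libraries lay above all others. Without Gm42418 the ranges overlapped, at 7.79% to 8.93% in TG Me-X04+ libraries, 8.46% to 9.62% in TG Me-X04- libraries and 4.79% to 9.74% in WT libraries. The 13 Gas5 transcripts took 0.819% to 2.57% in TG Me-X04+ libraries, 2.94% to 4.52% in TG Me-X04- libraries and 1.63% to 3.74% in WT libraries.

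The snoRNA and scaRNA entries took 1.73% to 4.48% of UMIs in TG Me-X04+ libraries, which was below every TG Me-X04- library (5.23% to 8.68%) and overlapped WT (3.53% to 7.79%). The snRNA entries took 0.851% to 1.89%, 2.08% to 3.14% and 2.73% to 5.67% in TG Me-X04+, TG Me-X04- and WT libraries. These are shares of 1 table, so a higher share of ribosomal RNA lowers the rest. Reads per UMI over the 275 entries ran from 4.84 to 14.4, and both ends of that range were WT libraries (replicates 5 and 2).

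For the tests, all entries of the table were fitted together (edgeR's quasi-likelihood test on UMI counts, TMM scaling), and an entry was called where its Benjamini-Hochberg adjusted p was below 0.05 and its log2 fold change was 0.7 or more in either direction. Levels are given as CPM, the UMIs of an entry set to a TMM-scaled library total of 1000000. Of the 479 entries tested, all 275 were among them, having been chosen for high counts, and none was at 0 in all 5 libraries of any group. Unless another fit is named, calls are those of this fit of all 15 libraries.

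The comparison of TG Me-X04+ with TG Me-X04- asks which fragments differ between amyloid-carrying and amyloid-free microglia of the same mice. Of the 275 entries, 40 rose in TG Me-X04+ libraries and 4 fell, against backgrounds of 8.35% called higher and 3.34% called lower among all entries tested, since no other tested entry was called higher. The rises were mostly long noncoding: 35 of the 168 rose and 1 fell. No snoRNA or scaRNA of 62 rose and 3 fell, and of 27 snRNA entries 0 were called by edgeR (1 had an unadjusted p under 0.05, and DESeq2 called 0). In an edgeR fit of both TG groups alone, 9 of 26 snRNA entries had such a p, beside 155 of all 422 entries tested. With the mouse as a block as well, 10 of 26 did, beside 163 of 422, and 0 snRNA entries were called in either fit. The remaining rises were 18S, the miscellaneous RNA Gm26350, 1 protein coding transcript of AI854703 and 2 entries outside GENCODE vM21 (ENSMUST00000136014 and ENSMUST00000185031); the last 3 lie outside the rule for named entries and were chosen after their values were seen.

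The median log2 fold change was 1.19 over the long noncoding entries, -0.48 over the snoRNA and scaRNA entries and -0.32 over the snRNA entries, beside -0.05 over all entries tested. Within the long noncoding entries the 133 with no small RNA gene in an exon had a median of 1.36 (32 rose, 0 fell), whereas the 35 with one had a median of -0.29 (3 rose, 1 fell). Several of the 35 are transcripts of 1 gene, Gas5, so these entries are not independent. Of the 40 rises, 33 were at 10 or more UMIs in all 15 libraries, and in 23 the 2 groups did not overlap in CPM. All 4 falls had groups that did not overlap. Called or not, 11.1% of all entries tested lay higher in TG Me-X04+ libraries without overlap and 9.39% lay lower (50 and 21 of the 275 entries).

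The split between rises and falls depended on the scaling. TMM factors ran from 0.538 in TG Me-X04+ replicate 3 to 1.36 in a WT library and were at or under 1.02 in all TG Me-X04+ libraries. Scaled to the table's total alone, 15 entries rose and 53 fell (3.13% and 22.8% of all entries tested), with 12 rises and 10 falls among the long noncoding entries, and the median over all entries tested was -0.55. Scaled to the effective sizes of the miRNA and piRNA table, an alternative added after the data were seen, 3 rose and 91 fell (1.00% and 36.1% of all entries tested, whose median was -1.08). The long noncoding median was 0.64 under the first of these scalings and 0.18 under the second, where a scaling shifts all entries of a library alike. Of the 27 snRNA entries, 9 fell under the first and 15 under the second.

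**Figure D2:**
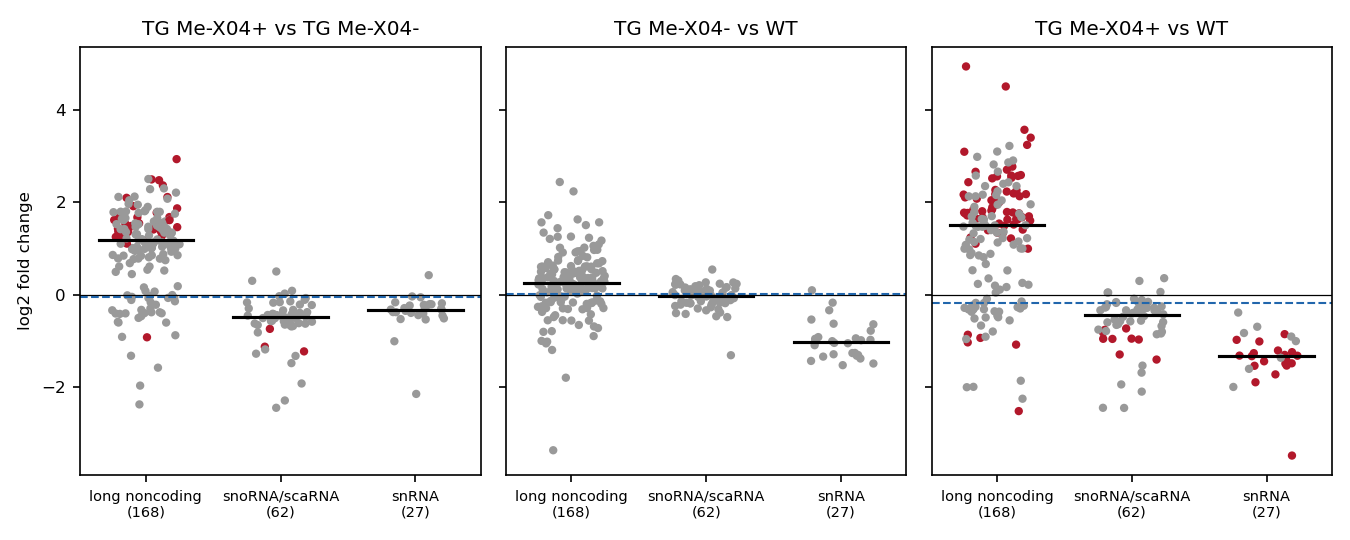
Log2 fold change (y axis) of each long noncoding, snoRNA or scaRNA and snRNA entry (x axis) in the 3 comparisons; red points were called, grey points were not, black bars are class medians and the blue dashed line is the median of all entries tested. Against TG Me-X04- the long noncoding median is 1.19 and the snoRNA median -0.48, and no entry is red in TG Me-X04- vs WT.

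Left out in turn, 3 libraries lowered the count most. Without TG Me-X04+ replicate 3, 13 entries rose and 4 fell; without TG Me-X04- replicate 1, 13 rose and 5 fell; and without TG Me-X04- replicate 5, 15 rose and 6 fell. In each case all of the entries that rose were among the 40, while only 3 of the entries that fell were among the 4. The share called over all entries tested is not given for these fits, so their counts have no background beside them. A fit of both TG groups alone gave 51 rises and 8 falls without a block (12.1% and 3.55% of all entries tested) and 56 rises and 8 falls with the mouse as a block (13.3% and 3.55%), and 37 and 4 of those with the block were among the 40 and the 4.

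Gm4117 (ENSMUST00000044500, chr13:89739460-89842373, plus strand) is an antisense transcript of 52401 spliced bases that overlaps Vcan and Xrcc4 on the other strand, so that without strand information its fragments and theirs could not be parted. It had 84 to 231 UMIs in TG Me-X04+ libraries, 81 to 132 in TG Me-X04- libraries and 74 to 282 in WT libraries. In CPM these were 940, 1263, 2290, 1760 and 1125 in TG Me-X04+ replicates 1 to 5, 478, 495, 779, 861 and 431 in TG Me-X04- replicates, and 737, 669, 677, 661 and 677 in WT replicates. All 5 TG Me-X04+ values lay above every other value, whereas the TG Me-X04- values lay on both sides of WT.

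The log2 fold change of Gm4117 was 1.28 (SE 0.24, edgeR adjusted p = 0.0033) in TG Me-X04+ against TG Me-X04-, 1.11 (SE 0.24, adjusted p = 0.0031) in TG Me-X04+ against WT and -0.17 (SE 0.24, adjusted p = 1) in TG Me-X04- against WT. No library, when left out, ended either call. Scaled to the miRNA and piRNA table, the values were 0.21 against TG Me-X04- and -0.19 against WT, and neither was called, nor were the values of 0.68 (adjusted p = 0.069) and 0.69 (adjusted p = 0.055) with the table's total alone.

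Other long noncoding entries of high UMI share rose too. Gm15564 had 12626, 14558, 35268, 23974 and 20573 CPM in TG Me-X04+ libraries, 4326, 8629, 14216, 7620 and 6815 in TG Me-X04- libraries, and 6561, 5991, 5881, 7118 and 7804 in WT libraries. It rose by 1.36 (SE 0.28, edgeR adjusted p = 0.0052) against TG Me-X04-, with 1 TG Me-X04- library inside the TG Me-X04+ range, and by 1.68 (adjusted p = 0.00059) against WT, with no overlap, and both calls ended with sizes of the miRNA and piRNA table (0.33 each). Gm20700 (chr5) had 2239 to 6316 in TG Me-X04+ libraries, 851 to 1969 in TG Me-X04- libraries and 717 to 974 in WT libraries.

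Gm20700 rose by 1.29 against TG Me-X04- (SE 0.27, edgeR adjusted p = 0.0052) and by 2.04 against WT (SE 0.28, adjusted p = 6.8e-05), and in neither comparison did the groups overlap. Its first call ended with the table's total alone (0.68) and with sizes of the miRNA and piRNA table (0.22). Gm42418 had 50683 to 135092 CPM in TG Me-X04+ libraries, 15890 to 42224 in TG Me-X04- libraries and 20132 to 71098 in WT libraries. It rose against TG Me-X04- by 1.44 (SE 0.36, adjusted p = 0.015), together with 18S at 1.37 (SE 0.37, adjusted p = 0.018), while 45S was at 0.79 (SE 0.29, adjusted p = 0.065). The calls of Gm42418 and 18S ended when the fit left out TG Me-X04+ replicate 3 (1.05 and 0.99, adjusted p = 0.063 and 0.082), without TG Me-X04- replicate 1 (1.10 and 1.04) and without TG Me-X04- replicate 5 (1.22 and 1.15). Against WT none of these 3 was called (Gm42418 was in 6 of 23 alternatives, 18S in 3 of 22 and 45S in 2 of 22), and WT replicates 4 and 5 held the highest WT values of each. The 2 calls of 45S went opposite ways, at 0.71 with DESeq2 and -0.90 with sizes of the miRNA and piRNA table. Gm26733 was at 1.02 (adjusted p = 0.065) against TG Me-X04-, at 0.93 (adjusted p = 0.032) with both TG groups alone and 0.97 (adjusted p = 0.0048) with the mouse as a block as well, and rose by 1.40 (adjusted p = 0.009) against WT.

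Some large rises rested on few libraries. The lincRNA 9530059O14Rik (transcript ENSMUST00000181682) had 377, 22, 778, 40 and 50 UMIs in TG Me-X04+ libraries, 25, 55, 36, 134 and 43 in TG Me-X04- libraries, and 18, 0, 31, 41 and 42 in WT libraries. TG Me-X04+ replicates 1 and 3 were high and the other 3 overlapped TG Me-X04-. Its log2 fold change was 2.94 (SE 0.83, edgeR adjusted p = 0.021) against TG Me-X04-, 2.83 (adjusted p = 0.035) with both TG groups alone and 1.94 (adjusted p = 0.18) with the mouse as a block as well. Its second transcript, ENSMUST00000181719, was at 2.48 (adjusted p = 0.016), 2.39 (adjusted p = 0.035) and 2.06 (adjusted p = 0.087) in the same 3 fits. Without TG Me-X04+ replicate 3 they were at 1.91 (adjusted p = 0.12) and 1.71 (adjusted p = 0.083), and without TG Me-X04- replicate 1 at 2.50 (adjusted p = 0.059) and 2.10 (adjusted p = 0.052). The call of the first also ended without TG Me-X04- replicate 2 or 5 (2.74 and 2.62, adjusted p = 0.051 and 0.053). Against WT both transcripts rose, by 4.51 and 3.40 (adjusted p = 0.0019 each).

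The lincRNA 2700033N17Rik had 0, 28, 161, 28 and 51 UMIs in TG Me-X04+ libraries, against 17 to 19 in TG Me-X04- libraries and 10 to 39 in WT libraries. It was called at 2.37 (SE 0.70, edgeR adjusted p = 0.026) against TG Me-X04-, and its adjusted p was 0.039 with both TG groups alone and 0.087 with the mouse as a block as well. Without TG Me-X04+ replicate 3 it was at 1.29 (adjusted p = 0.23) against TG Me-X04- and 1.09 (adjusted p = 0.24) against WT, where it had been called at 2.18, a call also lost without WT replicate 5 (1.78, adjusted p = 0.052). The call against TG Me-X04- was lost in 4 other such fits as well, without TG Me-X04- replicate 1, 2, 4 or 5 (adjusted p = 0.051 to 0.069). Gm26350, a miscellaneous RNA, had 38, 40, 139, 48 and 80 UMIs in TG Me-X04+ libraries, 10, 26, 35, 21 and 26 in TG Me-X04- libraries, and 24, 13, 28, 33 and 28 in WT libraries. It rose by 2.36 (SE 0.41, adjusted p = 0.0021) against TG Me-X04- and by 2.47 (SE 0.41, adjusted p = 0.00059) against WT, with no overlap in CPM in either, and it was called under every alternative tried.

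Among nuclear lncRNAs, a list of 5 entries of 4 genes, Neat1 rose, the scaffold of paraspeckles. It had 168, 276, 734, 503 and 256 CPM in TG Me-X04+ libraries, 81.3 to 267 in TG Me-X04- libraries and 117 to 226 in WT libraries, and the groups overlapped. The rise was 1.42 (SE 0.42, edgeR adjusted p = 0.027) against TG Me-X04- and 1.22 (SE 0.41, adjusted p = 0.029) against WT, on 15 to 74 UMIs per TG Me-X04+ library. The call against TG Me-X04- was lost in 6 fits without 1 library and that against WT in 7, and without TG Me-X04+ replicate 3 the values were 0.97 (adjusted p = 0.13) and 0.79 (adjusted p = 0.15). Over all 23 alternatives the calls held in 13 and 10.

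Pvt1, which lies beside Myc and hosts small RNAs, had 61, 25, 136, 49 and 40 UMIs in TG Me-X04+ libraries, 10 to 38 in TG Me-X04- libraries and 0 to 34 in WT libraries. It rose by 2.12 (SE 0.59, edgeR adjusted p = 0.020) against TG Me-X04- and by 2.59 (SE 0.60, adjusted p = 0.0041) against WT. The first call did not hold in fits without TG Me-X04+ replicate 3 (1.58, adjusted p = 0.096), TG Me-X04- replicate 1 (1.79, adjusted p = 0.059) or TG Me-X04- replicate 5 (1.73, adjusted p = 0.056). Miat, a nuclear lncRNA of neurons, was called against WT only (transcript ENSMUST00000181535, 1.00, SE 0.35, adjusted p = 0.034; 0.85, adjusted p = 0.10, against TG Me-X04-), and whether the 2 effects differ was not tested. That call was lost in 8 of 10 fits without 1 library (0.73 to 0.95, adjusted p = 0.072 to 0.17). Xist was not called in any comparison, though 1 of 22 alternatives called it against TG Me-X04-.

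**Figure D3:**
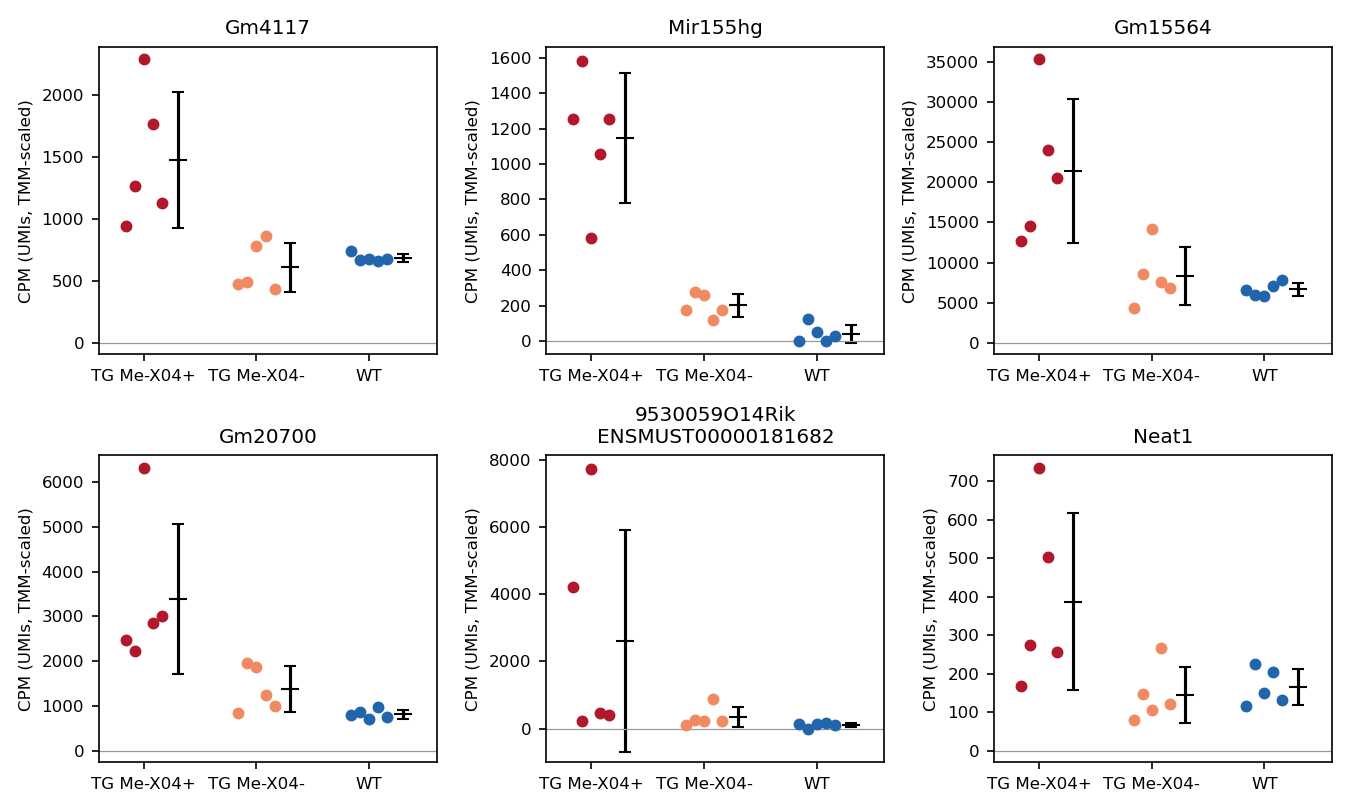
CPM (y axes) of 6 long noncoding entries in TG Me-X04+, TG Me-X04- and WT libraries (x axis); each point is 1 library and the dash with bars is the mean ± SD of 5 libraries. All TG Me-X04+ points of Gm4117, Mir155hg and Gm20700 lie above those of the other groups, whereas 9530059O14Rik is carried by 2 TG Me-X04+ libraries and Neat1 overlaps.

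Of the list of miRNA hosts and precursors, 3 entries were among the 275 (Meg3, Mir124a-1hg and Mir155hg), and 1 of them, Mir155hg, rose in both TG Me-X04+ comparisons while 0 fell. Mir155hg (chr16:84713023-84715245, plus strand) is the precursor transcript of miR-155, a miRNA induced in activated immune cells. It had 112, 149, 59, 88 and 152 UMIs in TG Me-X04+ libraries, 37, 60, 39, 18 and 33 in TG Me-X04- libraries, and 0, 14, 10, 0 and 13 in WT libraries. In CPM it averaged 1146 ± 366 in TG Me-X04+ libraries, 202 ± 66.6 in TG Me-X04- libraries and 41.6 ± 52.1 in WT libraries (SD, n = 5 each), and the TG Me-X04+ values overlapped neither of the other groups.

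Mir155hg rose by 2.50 (SE 0.53, edgeR adjusted p = 0.0052) in TG Me-X04+ against TG Me-X04- and by 4.94 (SE 0.63, adjusted p = 3.7e-05) against WT. The first call ended with read counts (2.29, adjusted p = 0.18). In TG Me-X04- against WT it was at 2.44 (SE 0.61, adjusted p = 0.12), and 7 of 22 alternatives called it, DESeq2 among them at 2.32. With 2 WT libraries listed at 0, the fitted values against WT depend on how such values are treated: over the alternatives the value of TG Me-X04+ against WT ran from 3.87 to 5.64, and it was called in all of them.

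Mature miR-155-5p and miR-9-5p were examined because their hosts were called in these same libraries. The p-values of their tests do not allow for that choice. The mature miR-155-5p, shown above, belongs to the miRNA table and was not used to choose these entries. It was at 1152, 1332, 996, 926 and 1399 CPM of the mature miRNA UMIs in TG Me-X04+ libraries, 168, 356, 411, 177 and 198 in TG Me-X04- libraries, and 58.7, 103, 60.6, 39.7 and 59.5 in WT libraries. The 3 groups did not overlap. The mean log2 difference was 1.97 in TG Me-X04- against WT and 4.20 in TG Me-X04+ against WT (two-sided exact permutation test, p = 0.00794 each, the smallest that 252 splits can give, and 0.0238 adjusted over 6 tests). In TG Me-X04+ against TG Me-X04- it was 2.23, higher in 5 of 5 mice, with p = 0.0625 in a two-sided exact permutation within mice (0.075 adjusted), the smallest that 32 sign flips can give, so that this comparison cannot pass 0.05. The host entry contains the mature sequence, so a molecule of the miRNA or of its hairpin may have been counted in either table.

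C130071C03Rik, a lincRNA that holds Mir9-2 in an exon and is not on that list, was named for its call and was the only long noncoding entry of 168 that fell against TG Me-X04-. It had 48, 76, 74, 62 and 80 UMIs in TG Me-X04+ libraries, 252, 294, 135, 304 and 210 in TG Me-X04- libraries, and 128, 227, 295, 379 and 287 in WT libraries. In CPM the TG Me-X04+ values (537 to 806) lay below all TG Me-X04- values (906 to 1983) and overlapped WT (689 to 2051). The fall was -0.92 (SE 0.26, edgeR adjusted p = 0.022) against TG Me-X04- and -0.93 (SE 0.26, adjusted p = 0.011) against WT, and TG Me-X04- stood at -0.01 against WT (adjusted p = 1). The call against TG Me-X04- ended with median-of-ratios factors (-0.69, adjusted p = 0.13), with DESeq2 (-0.69, adjusted p = 0.077) and among entries at 10 or more UMIs in every library (-0.61, adjusted p = 0.14). Against WT it ended with those factors (-0.74, adjusted p = 0.060) and among those entries (-0.60, adjusted p = 0.11).

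Mature miR-9-5p, which is also made from other genes and is abundant in the neural lineage, was at 506, 584, 671, 722 and 549 CPM of the mature miRNA UMIs in TG Me-X04+ libraries, 972, 1191, 883, 1297 and 850 in TG Me-X04- libraries, and 700, 1103, 1033, 1836 and 851 in WT libraries. The TG Me-X04+ values lay below every TG Me-X04- value and overlapped WT. The log2 difference was -0.77 against TG Me-X04-, lower in 5 of 5 mice (exact permutation within mice, p = 0.0625, adjusted p = 0.075), and -0.80 against WT (two-sided exact permutation test, p = 0.0159, adjusted p = 0.0317). TG Me-X04- against WT was at -0.03 (exact p = 0.92).

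As a check on the labelled cell type, miR-142a-3p, a miRNA of blood-derived cells that microglia also express, was at 13747 to 17132 CPM in TG Me-X04+ libraries, 17758 to 22410 in TG Me-X04- libraries and 17893 to 25492 in WT libraries. The neuronal miR-124-3p was at 0 to 124 CPM in TG Me-X04+ libraries, 41.9 to 83.3 in TG Me-X04- libraries and 19.8 to 56.3 in WT libraries. Of the list of neuron-enriched lncRNAs, Meg3 and Miat were among the entries with 3 transcripts, Rian and Pantr1 reached 10 UMIs in 1 library each, and Bc1, Mirg, Snhg11, Snhg14, Peg13 and Rmst had no entry in the table. Summed UMIs over all 6 transcripts of that list in the table, with a second Meg3 transcript, were 38 to 145 in TG Me-X04+ libraries, 31 to 87 in TG Me-X04- libraries and 40 to 117 in WT libraries. Meg3 was not called in any comparison, at 1.11 (SE 0.52, edgeR adjusted p = 0.15) against TG Me-X04-, where 2 of 23 alternatives called it. The part of RNA from other cells in any result was not tested.

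The list of snoRNA hosts, 16 entries of Gas5, Snhg5 and Snhg12, had 0 calls by edgeR with TMM scaling of all libraries, and 11 of the 16 were called in at least 1 alternative. Their median log2 fold change was -0.39 in TG Me-X04+ against TG Me-X04-, below the -0.05 of all entries. The most abundant Gas5 transcript, ENSMUST00000159399, had 7645, 7671, 6118, 7388 and 7318 CPM in TG Me-X04+ libraries, 12668, 10233, 9893, 11724 and 10137 in TG Me-X04- libraries, and 9415, 10373, 11357, 8187 and 10065 in WT libraries. The TG Me-X04+ values lay below both other groups, and the log2 fold changes were -0.60 (SE 0.13, adjusted p = 0.0052) against TG Me-X04- and -0.45 (SE 0.13, adjusted p = 0.011) against WT, past the adjusted p but short of the fold threshold. It was called lower in 9 of 23 alternatives against TG Me-X04- and in 2 of 23 against WT. The 2 Snhg5 transcripts were at -0.39 and -0.46 against TG Me-X04- (adjusted p = 0.11 and 0.083), and Snhg12 at -0.06 (adjusted p = 0.95).

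Of the 3 snoRNA entries called in TG Me-X04+ against TG Me-X04-, Snord17 had the largest fall, while entries near the limit of detection could show a larger value without a call, as Snord11 did (-2.28, SE 1.39, edgeR adjusted p = 0.29; chosen after its values were seen). It had 247, 190, 252, 256 and 359 UMIs in TG Me-X04+ libraries, 1463, 1362, 716, 994 and 1210 in TG Me-X04- libraries, and 966, 923, 1455, 1656 and 2430 in WT libraries. These were 2663 ± 422, 6202 ± 824 and 7015 ± 928 CPM in TG Me-X04+, TG Me-X04- and WT libraries (SD, n = 5 each), and TG Me-X04+ overlapped neither of the other groups. The fall was -1.22 (SE 0.15, edgeR adjusted p = 5.2e-05) against TG Me-X04- and -1.40 (SE 0.15, adjusted p = 7e-06) against WT.

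The U3 RNAs, which are needed for the first cuts of the ribosomal RNA precursor, fell as well. Rnu3b3 had 90, 95, 91, 67 and 153 UMIs in TG Me-X04+ libraries, 554, 398, 293, 359 and 385 in TG Me-X04- libraries, and 334, 275, 478, 481 and 1234 in WT libraries. In CPM the TG Me-X04+ values (802 to 1265) lay below all others (1840 to 2648 in TG Me-X04- libraries, 1904 to 2962 in WT). The log2 fold change was -1.12 (SE 0.16, edgeR adjusted p = 0.0003) against TG Me-X04- and -1.29 (SE 0.16, adjusted p = 3.7e-05) against WT. Snord17 and Rnu3b3 were called in both comparisons under every alternative tried.

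Rnu3b4, 215 of whose bases align to Rnu3b3 without a mismatch, was at -0.73 (SE 0.21, edgeR adjusted p = 0.026) and -0.94 (SE 0.21, adjusted p = 0.004) in these comparisons, so the 2 U3 entries are not independent. Its first call did not hold in fits without TG Me-X04+ replicate 3 or 4 (-0.63 and -0.73) and without TG Me-X04- replicate 1 or 5 (-0.82 and -0.80), at adjusted p = 0.052 to 0.059, and over all 23 alternatives it held in 15. The most abundant snoRNA, Gm25506, had 8081 ± 850 CPM in TG Me-X04+ libraries, 11440 ± 1327 in TG Me-X04- libraries and 9775 ± 2748 in WT libraries (SD, n = 5 each). At -0.50 (SE 0.17, adjusted p = 0.049) against TG Me-X04- and -0.27 (adjusted p = 0.22) against WT it was not called, nor was Snord55 at -0.50 (adjusted p = 0.062) and -0.33 (adjusted p = 0.16). Scaled to the table's total alone, 31 of the 62 snoRNA and scaRNA entries fell against TG Me-X04-, compared with 3 by TMM (22.8% and 3.34% of all entries tested).

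A330023F24Rik, a lincRNA that carried more UMIs than any snoRNA here but Gm25506, had 4041, 5655, 4025, 5556 and 4167 CPM in TG Me-X04+ libraries, 7381, 7760, 6316, 8083 and 5884 in TG Me-X04- libraries, and 8116, 14232, 9436, 7111 and 10454 in WT libraries. TG Me-X04+ lay below both other groups without overlap. The list of miRNA hosts did not include this entry. Whether molecules of a small RNA were counted for it was not tested. The log2 fold change was -0.60 (SE 0.18, edgeR adjusted p = 0.028) against TG Me-X04-, short of the fold threshold but called in 11 of 23 alternatives (-1.61 to -0.30 over all 23), and -1.07 (SE 0.18, adjusted p = 0.00059) against WT, a call that no library ended when left out.

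**Figure D4:**
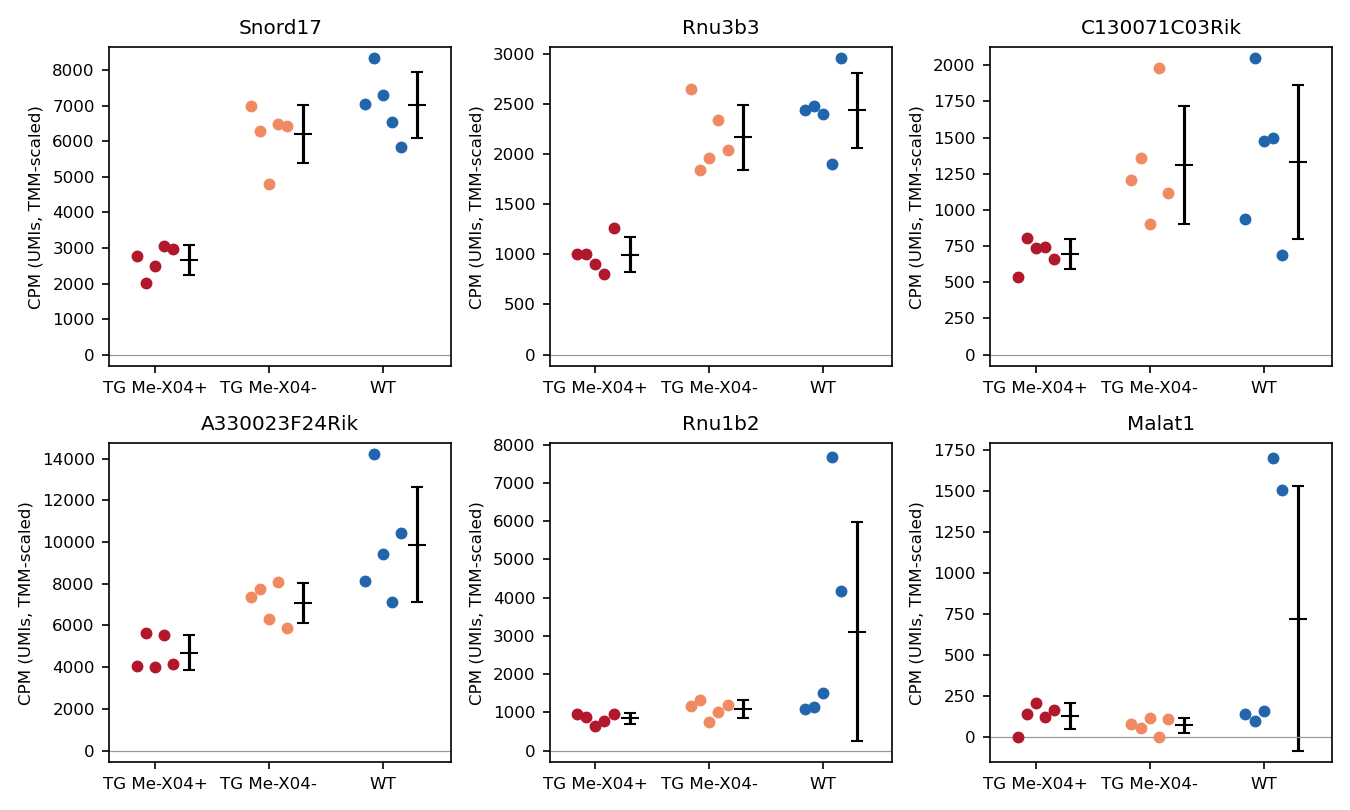
CPM (y axes) of 6 entries that fell in TG Me-X04+ against TG Me-X04- or WT, in TG Me-X04+, TG Me-X04- and WT libraries (x axis); each point is 1 library and the dash with bars is the mean ± SD of 5 libraries. Snord17 and Rnu3b3 were lower in all 5 TG Me-X04+ libraries than in any other library, while the WT means of Rnu1b2 and Malat1 are set by 2 libraries, WT replicates 4 and 5.

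TG Me-X04+ against WT combines amyloid uptake with genotype and labelled age. Of the 275 entries, 67 rose and 33 fell, against backgrounds of 15.03% called higher and 16.1% called lower among all entries tested. Of the rises, 42 were at 10 or more UMIs in all 15 libraries and 54 had groups that did not overlap, and of the falls 16 had groups that did not overlap. Of all entries tested, called or not, 16.1% lay higher in TG Me-X04+ libraries than in WT without overlap and 9.19% lay lower (71 and 25 of the 275 entries). By class, 63 of 168 long noncoding entries rose and 5 fell (median log2 fold change 1.51, beside -0.17 over all entries tested), 0 of 62 snoRNAs or scaRNAs rose and 9 fell (median -0.44), and 0 of 27 snRNA entries rose and 19 fell (median -1.31). Both comparisons share the TG Me-X04+ libraries, and 38 entries, 34 of them long noncoding, were called higher in both.

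The largest rises against WT included entries near the limit of detection in WT. Gm26513 had 13, 20, 42, 20 and 19 UMIs in TG Me-X04+ libraries, 0 to 19 in TG Me-X04- libraries, and 0, 0, 13, 0 and 11 in WT libraries (3.57, SE 1.38, edgeR adjusted p = 0.0498). Gm26793 had 11 to 72, 10 to 14 and 0 to 16 in TG Me-X04+, TG Me-X04- and WT libraries (3.10, SE 1.07, adjusted p = 0.031), and 4632428C04Rik had 11 to 27 in TG Me-X04+ libraries, 11 to 24 in TG Me-X04- libraries and 0 to 17 in WT libraries (3.25, SE 1.07, adjusted p = 0.025). The first call was lost in 9 of 10 fits without 1 library (adjusted p up to 0.13), the second without TG Me-X04+ replicate 3 or 5 or WT replicate 3 or 5 (2.41 to 2.94), and the third without TG Me-X04+ replicate 2 or 4 or WT replicate 3 (2.71 to 3.04). For these 3 the size of the fitted change depends on what the zeros stand for.

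Entries were assigned to U1, U2 and U5 by a short word in their sequence, not by the annotation. For U2 and U5, how often that word stands in other entries was not counted. The U1 and U2 entries took their highest shares of the table in 2 WT libraries, replicates 4 and 5. For U1 these were 3.85% and 2.58%, against 1.45% to 1.63% in the other WT libraries. The U5 entries differed, with 0.732% in WT replicate 4, 0.352% in replicate 5 and 0.861% in replicate 3. Rnu1b2 had 86, 82, 66, 64 and 117 UMIs in TG Me-X04+ libraries, 247, 287, 110, 154 and 226 in TG Me-X04- libraries, and 149, 126, 299, 1938 and 1738 in WT libraries. WT replicates 4 and 5 stood at 7673 and 4172 CPM, against 1087 to 1499 in the other WT libraries, 654 to 967 in TG Me-X04+ libraries and 738 to 1326 in TG Me-X04-. Its log2 fold change against WT was -1.89 (SE 0.43, edgeR adjusted p = 0.004) with all libraries and -0.51 (adjusted p = 0.10) with WT replicates 4 and 5 both left out, an alternative added after the data were seen.

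Rnu1a1, the other U1 form shown above, had 1613 to 2183 CPM in TG Me-X04+ libraries, 2094 to 2428 in TG Me-X04- libraries, and 2000, 1916, 2547, 9526 and 6263 in WT replicates 1 to 5. It was at -1.30 (SE 0.34, edgeR adjusted p = 0.0083) against WT with all libraries. The other U1 entries among the largest falls were Rnu1b1 at -1.72, Gm24305 and Gm23804 at -1.53 each, and Gm24924 (chromosome 18) at -3.47, a call lost without WT replicate 4 (-2.77, adjusted p = 0.11) or TG Me-X04+ replicate 4 (-3.21, adjusted p = 0.052). In all, 13 of 14 U1, 3 of 5 U2 and 3 of 4 U5 entries were called lower against WT. Without WT replicates 4 and 5, 0 of the 27 snRNA entries were called (median -0.34, beside 0.41 over all entries tested). In that fit 9 of the 27 had an unadjusted edgeR p under 0.05, beside 216 of all 582 entries tested.

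Malat1, an abundant nuclear lncRNA of most tissues, had 0, 13, 21, 10 and 20 UMIs in TG Me-X04+ libraries, 16, 12, 17, 0 and 20 in TG Me-X04- libraries, and 19, 11, 32, 430 and 627 in WT libraries. It was called lower in TG Me-X04+ than in WT (-2.51, SE 0.84, edgeR adjusted p = 0.027), and with WT replicates 4 and 5 left out it was at -0.04 (adjusted p = 0.999). That call held in 16 of 22 alternatives. The 7SL RNAs of the signal recognition particle, Rn7s1, Rn7s2 and Rn7s6, were high in the same 2 libraries, with 382 and 421, 459 and 486, and 182 and 194 UMIs there and 17 to 65 in the other WT libraries. Of the list of RNA polymerase III transcripts, 4 genes with Rmrp, 0 were called by edgeR with TMM scaling of all libraries. In TG Me-X04- against WT, Rn7s1 and Rn7s2 were called lower in 5 of 23 alternatives each and Rn7s6 in 1, and in TG Me-X04+ against WT these counts were 7, 8 and 3. WT replicates 4 and 5 also held the most UMIs of the table, 348062 and 537974, against 81777 to 175057 in the other WT libraries.

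Without those 2 WT libraries, 39 of the 275 entries rose against WT and 7 fell (6.87% and 1.72% of the 582 entries tested in that fit), and 37 of the rises and 6 of the falls were also called with all libraries. The long noncoding entries had 34 rises and 2 falls in that fit, and the 7 falls were Snord17, Rnu3b3, Rnu3b4, C130071C03Rik, A330023F24Rik and the snoRNA entries Gm26135 and Gm23262, the last 2 of which were named after their values were seen. The comparison of TG Me-X04+ with TG Me-X04- shares its spread and scaling with WT but not its means, and it had 38 rises and 8 falls in that fit (6.87% and 3.44% of all entries tested).

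**Figure D5:**
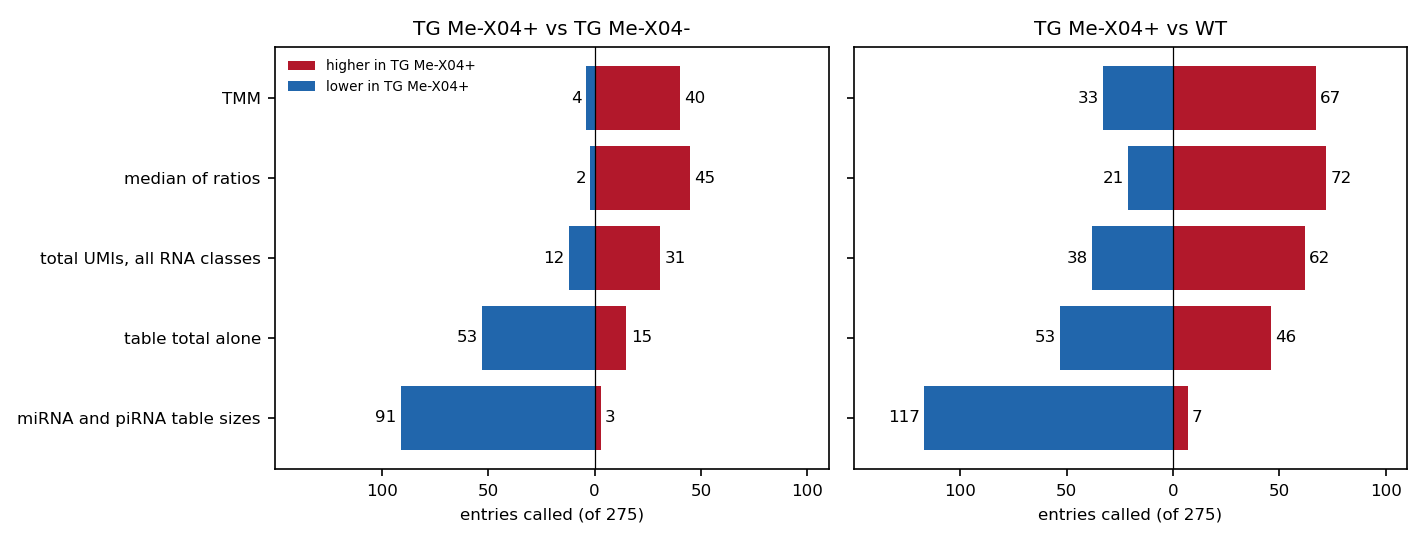
Number of the 275 entries called (x axis) higher (red, to the right) or lower (blue, to the left) in TG Me-X04+ libraries than in TG Me-X04- or WT libraries, under 5 scalings of the same UMI counts (y axis). Against TG Me-X04- the split is 40 to 4 with TMM factors, 15 to 53 with the table's total alone and 3 to 91 with the effective sizes of the miRNA and piRNA table.

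TG Me-X04- against WT, which compares amyloid-free cells across genotype and labelled age, had 0 calls among the 275 entries by edgeR, with a background of 0.00% called in either direction. At an unadjusted p under 0.05 there were 32 of the 275 entries, beside a background of 10.6% over all entries tested, and 18 of the 32 were snRNAs, whose median log2 fold change was -1.02 beside 0.03 over all entries. DESeq2 called 22, with 1 rise (Mir155hg) and 21 falls, beside 6.26% of all entries tested. The count was 21, 18 and 19 in the fits without WT replicate 1, 2 or 3, in which 16, 14 and 15 snRNA entries fell and WT replicates 4 and 5 made up 2 of the 4 WT libraries left. The share called over all entries tested is not given for these fits. Without WT replicates 4 and 5 the count was 2, both rises, beside 0.344% of all entries tested. In that fit the snRNA median was 0.05, beside 0.27 over all entries tested. The 2 rises were Gm12992 and 4632428C04Rik, each listed at 0 in all 3 remaining WT libraries.

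At the edge of the rule, 26 entries were at 10 or more UMIs in exactly 10 libraries, and their median over libraries was 11 to 17 UMIs. Just outside it, 18 entries of allowed identifier reached that level in exactly 9 libraries, with medians of 10 to 15 UMIs. Long noncoding entries made up 20 of the 26 and 14 of the 18. Among the 26, Rmrp, the RNA of a ribonuclease that acts on ribosomal RNA, had 0 to 12 UMIs in TG Me-X04+ libraries, 11 to 22 in TG Me-X04- libraries and 0 to 79 in WT libraries, and Mir124a-1hg, a host of the neuronal miR-124, had 0 to 16 in TG Me-X04+ libraries, 0 to 17 in TG Me-X04- libraries and 0 to 23 in WT libraries. Neither was called in any comparison, and against TG Me-X04- their standard errors on the log2 scale, 1.41 and 1.55, were larger than the change of Snord17, so that a change of that size was not detectable at this depth.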

How the data were processed

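RNA of sorted microglia was made into small RNA libraries with the QIAseq miRNA kit, which tags molecules with UMIs, and sequenced. The authors had the kit maker's online service sort reads into RNA classes, and the counts they deposited, of reads and of UMIs for each entry, are raw. GRCm38 and edgeR 3.24.3 are named in the submitters' processing notes. Groups and ages came from the labels, whereas the methods of the study state different ages and numbers of mice, and the files hold nothing that settles this.

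UMI counts of the whole table were filtered with filterByExpr and fitted in edgeR 4.0.16 (R 4.3.3), all 15 libraries at once, with TMM factors, the quasi-likelihood F-test and Benjamini-Hochberg adjustment over 479 entries, with standard errors implied by the test statistic. Nothing says whether libraries of a group came from separate preparations beyond their separate mice, so p-values measure the spread between these libraries. The fit was tested on simulated data, without the filter and with no shared mice or libraries set apart, so that test does not cover these. Alternatives were median-of-ratios factors, 3 other scalings, no filter, zeros set to 9, read counts, 2 groups alone, a block on 2 groups alone, DESeq2 1.42.0, entries at 10 or more UMIs in every library and leaving out each library. The total of all RNA classes was summed from the deposited tables. TG libraries of the same number come from the same mouse. Deviations of such pairs correlated at 0.26, 0.03, 0.31, -0.08 and 0.07. No 2 libraries of a group agreed within sampling noise (lowest chi-square per degree of freedom 3.84). Mature miRNAs were scaled to mature miRNA UMIs with a pseudocount of 1 on the log2 scale, and TG groups were permuted within mice. Intervals of counting error were not computed, since every value has replicates.

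Members and lists were chosen with earlier results of these data known. Named were the 12 entries of highest mean share, Gm4117 and the 15 highest long noncoding entries, the 6 largest called rises and falls per comparison, list members, and entries at the edge of the rule. Lists were RNA polymerase III transcripts, ribosomal RNAs, snoRNA hosts, miRNA hosts, nuclear lncRNAs and neuron-enriched lncRNAs. Columns of the authors' own comparisons were not used.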

Additional observations from a re-analysis of the deposited data

Results flagged for a closer look

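For the levels (CPM) of 57 named entries and 6 shares of the table's UMIs in 3 groups, 189 sets of 5 values were examined for 1 library far from the other 4, and 16 sets held one, where chance alone gives about 5% of sets. Of these, 9 concerned TG Me-X04+ replicate 3, the library with the smallest scaling factor. It was high for Gm42418 (135092, others 50683 to 74879), Gm20700 (6316, others 2239 to 3010), Gm26733 (3173, others 1388 to 1613), 2700033N17Rik (1596, others 0 to 422), Gm26350 (1378, others 424 to 662) and Gm26793 (714, others 132 to 256). It was low for 3 Gas5 transcripts, ENSMUST00000159399 (6118, others 7318 to 7671), ENSMUST00000161229 (2251, others 3280 to 3497) and ENSMUST00000163081 (109, others 273 to 323).

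TG Me-X04+ replicate 2 was high for Gm24924 (138, others listed at 0) and Rn7s2 (562, others 347 to 407), and TG Me-X04+ replicate 5 for the Gas5 transcript ENSMUST00000159890 (149, others listed at 0). TG Me-X04- replicate 4 was high for 9530059O14Rik ENSMUST00000181682 (874, others 120 to 254). WT replicate 1 was high for Gm4117 (737, others 661 to 677), and WT replicate 2 for the Gas5 transcripts ENSMUST00000160516 (2322, others 1279 to 1540) and ENSMUST00000160551 (750, others 437 to 506). WT replicates 4 and 5 are not in this list because they stood apart together.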

How the results depend on the processing

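In TG Me-X04+ against TG Me-X04-, 44 entries were called (11.7% of all entries tested; such shares follow in brackets). The count was 68 with the table's total alone (25.9%) and 129 with zeros set to 9 UMIs (41.96%). It was 94 with sizes of the miRNA and piRNA table (37.1%), 68 with DESeq2 (17.95%), and 17 to 51 with 1 library left out. In TG Me-X04- against WT, with 0 called (0.00%), it was 2 with the table's total alone (0.418%), 21 without the filter (2.45%) and 2 with zeros set to 9 (0.835%). It was 2 without WT replicates 4 and 5 (0.344%), 22 with DESeq2 (6.26%), and 0 to 21 with 1 library left out. In TG Me-X04+ against WT, with 100 called (31.1%), it was 177 with zeros set to 9 (58.9%) and 59 among entries at 10 or more UMIs in every library (30.2%). It was 46 without WT replicates 4 and 5 (8.59%) and 83 to 104 with 1 library left out. Shares over all entries tested are not given for fits without 1 library. With sizes of the miRNA and piRNA table the count against WT was 124, split into 7 rises (2.01%) and 117 falls (46.99%) instead of 67 and 33. With read counts the splits were 20 to 10 against TG Me-X04- (3.61% and 4.64%) and 39 to 40 against WT (7.56% and 17.4%). With the table's total alone the split was 46 to 53 against WT (10.4% and 23.8%). Under the sizes of the miRNA and piRNA table the direction turned for 11 of 57 named values of TG Me-X04+ against WT and 8 of 49 against TG Me-X04-. Those against WT that were called in either fit were 45S (-0.90, adjusted p = 0.034), Gm4117 (-0.19), Gm26733 (-0.019), Neat1 (-0.13) and Miat ENSMUST00000181535 (-0.19), and among the others were 18S (-0.75), Gm42418 (-0.56), Xist (-0.57) and Meg3 (-0.46). The median share of the 275 entries in TG Me-X04+ was 88.9%, and 87.1% when only entries at 10 or more UMIs in all 15 libraries were counted. With 1 library left out, shares moved between 83.7% and 85.5% over all groups, 88.6% and 89.6% in TG Me-X04+ libraries, 80.9% and 82.2% in TG Me-X04-, and 81.3% and 83.6% in WT. Where no value above shows it, the cause of a change was not tested.

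The replicate block, which pairs the TG libraries by mouse, was fitted on 2 groups alone. For TG Me-X04+ against TG Me-X04- such fits gave 64 calls with the block and 59 without (16.8% and 15.6% of all entries tested). Against WT, whose numbers name no shared mouse, TG Me-X04+ had 47 calls with the block and 82 without (14.2% and 25.8%), and TG Me-X04- had 0 in both. Of 42 calls of named entries, 27 held in every fit without 1 library and 15 were lost in at least 1. Chosen once the data had been seen were the fits with sizes of the miRNA and piRNA table, without 45S and 18S and without WT replicates 4 and 5. Without 45S and 18S there were 43 calls against TG Me-X04- and 100 against WT (11.7% and 30.2% of all entries tested). The limit at 10 UMIs hides values of low entries, and most long noncoding entries lie close to it.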
